A study of Mus musculus with 33 samples.

Results

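Neutrophil granule and maturation genes were followed across granulocyte stages, tissues and biotin sorts. The set was a fixed list of 39 gene symbols, chosen by name with earlier results of these data known. Of these, 38 were found among the 32285 genes of the matrices. The other listed symbol, Mmp8l1, was not matched to a row and was not analysed here. By role, 7 members belong to the primary granules or mark precursors (Elane, Mpo, Prtn3, Ctsg, Ms4a3, Prss57 and Fcnb), 2 are transcription factors (Cebpe and Gfi1) and 13 belong to the secondary granules or to neutrophils that carry them (Ltf, Camp, Ngp, Lcn2, Cd177, Itgb2l, Ifitm6, Ceacam10, Chil1, Orm1, Hp, Pglyrp1 and Anxa3). Another 7 are late genes (Ly6g, Lyz2, Retnlg, Slfn1, Nlrp12, Wfdc21 and Padi4), 5 are stefins (Stfa1, Stfa2, Stfa3, Stfa2l1 and BC100530), and 4 are oxidase subunits or a protease inhibitor (Cybb, Cyba, Ncf1 and Serpinb1a).

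The samples were single-cell RNA libraries of mouse tissue whose cells had been sorted as biotin positive or biotin negative; in SAMENT, the niche labelling method of this study, cancer cells that carry an enzyme attach a biotin substrate to the cells around them. The 32 intracardiac samples comprised 4 biotin positive and 4 biotin negative samples each of bone, brain, liver and lung, all from mice given an intracardiac injection. A pooled bone library from an injection that the labels name only as IIA held 12 samples told apart by hashtags, with both sorts of each of 6 injections, and is called IIA bone here. Its hashtag names in the matrix differ in their letters from those in the deposited notes and were matched by number only, so every IIA bone value by sort or injection rests on that match. The labels give no mouse strain, age or tumour line for the groups, and no uninjected mice, so both sorts come from injected animals and the comparison is between labelled and unlabelled cells of the same tissue.

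Neutrophils package antimicrobial proteins into granules that form in a fixed order while the cell matures in the bone marrow. Promyelocytes fill the primary, or azurophil, granules with myeloperoxidase and serine proteases, myelocytes and metamyelocytes fill the secondary, or specific, granules with lactoferrin and cathelicidin, and band and segmented cells add tertiary granules and surface receptors. The content of a granule follows from when its gene is transcribed, under factors such as Gfi1, Cebpa and Cebpe. Mature cells that have left the marrow therefore carry primary granule proteins but little of the matching mRNA.

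The promoters of 6 members are shown because each stands for a step of that order: Elane and Ms4a3 for the early precursors, Ngp and Ltf for the secondary granules, Retnlg and Stfa2l1 for mature cells. The sequences are from RefSeq on GRCm38.p6 and stop before the annotated gene start, and capitals mark matches to the C/EBP-type letters TTNNGNAA or the PU.1-type letters GAGGAAGT on either strand. The windows lie at chr10:79886062-79886246, plus strand, for Elane; chr19:11640852-11641101, minus strand, for Ms4a3; chr9:110419558-110419746, plus strand, for Ngp; chr9:111019042-111019270, plus strand, for Ltf; chr16:48872358-48872607, plus strand, for Retnlg; and chr16:36156561-36156810, plus strand, for Stfa2l1.
Elane: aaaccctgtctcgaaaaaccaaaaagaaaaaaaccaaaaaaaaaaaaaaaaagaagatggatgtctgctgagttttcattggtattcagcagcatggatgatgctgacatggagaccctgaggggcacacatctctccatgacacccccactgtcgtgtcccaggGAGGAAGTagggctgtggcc
Ms4a3: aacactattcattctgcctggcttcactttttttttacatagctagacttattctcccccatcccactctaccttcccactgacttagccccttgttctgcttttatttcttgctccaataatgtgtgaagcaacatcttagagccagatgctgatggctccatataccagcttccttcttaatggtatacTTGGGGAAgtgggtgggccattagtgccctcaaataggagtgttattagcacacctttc
Ngp: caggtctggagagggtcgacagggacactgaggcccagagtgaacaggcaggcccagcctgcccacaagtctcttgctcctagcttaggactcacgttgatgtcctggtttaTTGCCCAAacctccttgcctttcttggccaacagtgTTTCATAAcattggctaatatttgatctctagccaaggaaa
Ltf: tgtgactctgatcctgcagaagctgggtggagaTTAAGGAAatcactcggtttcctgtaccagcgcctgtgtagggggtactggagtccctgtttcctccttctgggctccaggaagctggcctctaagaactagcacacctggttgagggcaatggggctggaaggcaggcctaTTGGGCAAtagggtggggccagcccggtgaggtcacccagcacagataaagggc
Retnlg: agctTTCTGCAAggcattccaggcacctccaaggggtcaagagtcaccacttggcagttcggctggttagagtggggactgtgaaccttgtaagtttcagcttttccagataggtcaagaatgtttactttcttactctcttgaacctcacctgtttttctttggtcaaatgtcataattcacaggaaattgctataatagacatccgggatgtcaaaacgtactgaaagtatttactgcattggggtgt
Stfa2l1: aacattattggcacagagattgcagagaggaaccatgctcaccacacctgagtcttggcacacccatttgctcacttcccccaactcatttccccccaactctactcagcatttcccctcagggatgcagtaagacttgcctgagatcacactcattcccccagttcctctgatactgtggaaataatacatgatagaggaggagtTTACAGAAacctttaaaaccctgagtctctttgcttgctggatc

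A promoter window was present for 30 of the 38 members. In the 250 bases before the RefSeq start, TTNNGNAA matched in 17 of these 30 members and in 36.8% of 32851 windows of all genes. For these counts the windows were not trimmed at the annotated gene start. Some lie inside the annotated gene, such as that of Prtn3 (chr10:79879417-79879666). GAGGAAGT matched in 5 members (Elane, Mpo, Prtn3, Ly6g and Itgb2l) and in 2.44% of all windows. A longer palindromic C/EBP motif and a GFI1 motif matched in 0 members, and in 0.00609% and 0.615% of all windows. These matches describe letters in a window and do not show binding.

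Several members are neighbours on the mouse genome (GRCm38 coordinates). The protease genes Prss57 (chr10:79781474-79790961), Prtn3 (chr10:79874476-79883174) and Elane (chr10:79886247-79888215) lie together on chromosome 10. Camp (chr9:109847379-109849617), Ngp (chr9:110419747-110423012) and Ltf (chr9:111019271-111042767) lie on chromosome 9. The 5 stefin genes lie between Stfa2l1 (chr16:36156811-36161953) and Stfa3 (chr16:36450537-36455392) on chromosome 16. The stefins are close paralogs whose reads the counting may have divided among them, so the level of a single stefin is uncertain.

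The 32 intracardiac samples held 497940 to 44874529 UMIs each and the IIA bone matrix 153488427; 55366 intracardiac and 22362 IIA bone cells were kept. Doublets were not removed from the reported values, except for the lymphocyte levels, which are given without the 5% of cells with the highest doublet scores. Libraries with the same replicate number shared 0 cell barcodes over 112 pairs, and 341 barcodes were shared over 384 pairs with different numbers. In brain, the negative sample 1 stood apart: early and cycling precursors made up 40.6% of its granulocytes, against 0.122% to 9.75% in the other brain negative samples. The brain positive sample 2 held 21 granulocytes. In IIA bone, and to a lesser degree in the intracardiac samples numbered 3, primary granule UMIs were found in every cell type, as described with the lymphocytes.

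Granulocyte stages were clusters made without any member among the genes used and were named from markers other than the members. Early precursor-like cells were led by genes such as Myb, Dmkn and Cst7, and in IIA bone 1 of their 3 clusters had the heat shock genes Hspa1b and Hspa1a at its head and another held the chaperone genes Hspe1 and Hspd1 among its leading genes. Cycling precursors were the immature neutrophil-like cluster with high cell cycle genes (Mki67 and Top2a in the intracardiac samples). Immature neutrophil-like clusters were led by genes such as AA467197, Adpgk and Anxa1, or Mmp9 and Mmp25. Of the 4 intracardiac mature neutrophil-like clusters, 1 was led by Csf3r and Cxcr2 among others, 1 by Prok2 and Mmp8, and 2 by immune or stress genes that include Il1b, Acod1 and Cxcl2. An activated neutrophil-like cluster was led by immune genes (Rsad2 and Ccl3 in the intracardiac samples, Acod1 and Cxcl2 in IIA bone). These clusters held 1080 early, 1866 cycling, 6507 immature, 12368 mature and 469 activated cells in the intracardiac samples, and 1856, 3037, 5620, 3663 and 627 in IIA bone. Levels are CPM, a gene's UMIs scaled to a common total of UMIs for the stage, summed within each sample with at least 20 such cells; the median over samples and the range are given.

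All primary granule and precursor members except Fcnb were at their highest in early precursors, and their medians were lower in every later stage. Elane, neutrophil elastase, had a median of 9140.2 (range 6604 to 11483) CPM in early precursors of 11 intracardiac samples, 1069 (range 124 to 2297) in cycling precursors of 12, 10.1 (range 0 to 45.6) in immature neutrophils of 21 and 14.3 (range 2.62 to 75.6) in mature neutrophils of 31. Its values in early precursors did not overlap those of any later stage. Mpo, myeloperoxidase, which makes hypochlorous acid, went from a median of 4534 to 221, 8.65 and 14.0 CPM over the same stages. Prtn3, proteinase 3, went from 8431 to 1421, 30.1 and 29.4 CPM, and Ctsg, cathepsin G, from 4241 to 96.6 in cycling precursors. Ms4a3, a membrane protein of granulocyte and monocyte progenitors, had medians of 1984, 423, 18.3 and 4.098 CPM. Prss57, a further serine protease of these granules, had 280.1 and 54.9 CPM in early and cycling precursors. In all 10 intracardiac and 11 IIA bone samples with these 4 stages, Elane, Mpo, Prtn3, Ctsg, Ms4a3 and Prss57 were each highest in early precursors.

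Fcnb, the lectin ficolin B, was the exception among the primary and precursor members. Its median was 398 (range 215 to 609) CPM in early and 808 (range 623 to 1012) in cycling precursors, and 1.84 in mature neutrophils. It was highest in cycling precursors in every sample with the 4 stages. Of the transcription factors, Gfi1, a repressor needed for neutrophil formation, was highest in early precursors, at 63.3 (range 36.8 to 88.1) CPM, against 19.5 in cycling and 2.59 in immature cells. Cebpe, which is required for secondary granules, was highest in cycling precursors, with medians of 251, 542, 142 and 13.2 CPM from early to mature. The order of Gfi1 and Cebpe was the same in every sample with the 4 stages of both experiments.

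Of the 13 secondary granule members, 11 reached their highest intracardiac median in cycling or immature cells and the other 2 in mature cells. Camp, the cathelicidin precursor, had medians of 3016 (range 777 to 9185), 40141 (range 25202 to 54461), 17365 (range 6023 to 30209) and 202 (range 97.1 to 2847) CPM from early to mature in the intracardiac samples. It was highest in cycling precursors in every sample with the 4 stages. Ltf, iron-binding lactoferrin, came later: 41.2 (range 27.6 to 123), 4101 (range 2870.1 to 7189), 5759 (range 2059 to 9004) and 89.0 (range 26.3 to 1074) CPM, and it was highest in immature neutrophils in all of these samples. The immature and cycling ranges of Ltf overlapped over samples. Ngp, a granule protein related to the cathelicidins, had 2479, 33015, 26519 and 1494 CPM, and Lcn2, which binds bacterial siderophores, 1168, 16149.7, 17961 and 5887 CPM. Lcn2 thus kept more of its highest level in mature cells than Camp or Ltf.

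Of the 13 secondary granule members, 4 had their highest intracardiac median in cycling precursors (Camp, Ngp, Orm1 and Anxa3), 7 in immature neutrophils and 2 in mature neutrophils. Cd177, a surface glycoprotein of neutrophils, had 857, 1084 and 274 CPM in cycling, immature and mature cells. Itgb2l, an integrin beta chain, had 187, 209 and 26.8, and Ifitm6, an interferon-induced transmembrane protein, 2581, 6919.5 and 2241 CPM. Pglyrp1, which binds peptidoglycan, and Ceacam10, a secreted immunoglobulin-like protein, were also highest in immature cells, at 3749.5 and 188 CPM. The members with a mature maximum were Chil1, a chitinase-like protein (425 CPM), and Hp, the haemoglobin-binding haptoglobin (2433 CPM). Orm1, an acute phase glycoprotein, went from 327 CPM in cycling to 8.32 in mature cells. Anxa3, an annexin, had similar medians in early, cycling and immature cells (201, 227 and 223 CPM) with overlapping ranges.

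Of the 7 late genes, 4 had their highest intracardiac median in immature, 2 in mature and 1 (Slfn1) in activated cells. Retnlg, a resistin-like secreted protein, had a median of 154 (range 23.9 to 533) CPM in early precursors, 610.2 (range 251 to 1011) in cycling, 23113 (range 12502 to 40401) in immature and 39681 (range 16224 to 58277) in mature cells. The immature and mature ranges overlapped over samples, although Retnlg was higher in mature than in immature cells of every sample with the 4 stages. Ly6g, the surface antigen used to define mouse neutrophils, was highest in immature cells, with medians of 4.32, 109.8, 661 and 464 CPM, and the immature and mature ranges overlapped. Lyz2, a lysozyme, went from 5144 CPM in immature to 650.1 in mature cells. Nlrp12, a regulator of inflammatory signalling, had a median of 68.4 (range 43.6 to 109) CPM in mature cells against 13.4 in immature cells. Slfn1, a schlafen, had 229, 401 and 701 CPM in immature, mature and activated cells. Wfdc21, a protease inhibitor-like protein, and Padi4, the enzyme that citrullinates histones, were highest in immature cells, at 6122 and 146 CPM.

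The stefins, intracellular inhibitors of cysteine proteases, were at their lowest in early precursors of the intracardiac samples. Stfa2l1 had medians of 3.502, 204, 909, 2009.9 and 2059 CPM from early to activated. In intracardiac cycling precursors Stfa1 already stood at 604 CPM, above its 516 CPM in mature cells, and BC100530 at 355 CPM. Stfa1, Stfa2, Stfa3 and BC100530 had their highest intracardiac median in immature cells (701, 878, 492 and 866 CPM) and their highest IIA bone median in mature cells (273, 106, 73.1 and 256 CPM). BC100530 in immature cells ranged over samples from 32.9 to 4576 CPM. Among the subunits of the NADPH oxidase, Cybb (gp91phox) was highest in cycling precursors (1309 CPM) and lower in mature cells (64.7), while Cyba (p22phox) and Ncf1 (p47phox) were highest in immature cells (2182.1 and 669 CPM) and kept 1190.1 and 394 CPM in mature cells. Serpinb1a, an inhibitor of granule proteases, was highest in cycling precursors, at 1693 CPM, against 71.5 in mature cells.

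In both experiments together, 29 of 38 members had the same stage of highest median. Those that differed were Anxa3, BC100530, Cd177, Chil1, Retnlg, Slfn1, Stfa1, Stfa2 and Stfa3. Some differed by median but less so by sample. Cd177 was highest in immature cells in 8 of 11 IIA bone samples with the 4 stages, although its highest median was in cycling precursors. Intracardiac Stfa2 was highest in mature cells in 6 of 10 such samples, and Anxa3 in immature cells in 5 of 10. Stages were named within each experiment. A cluster led by Acod1 and Cxcl2 among others was named mature in the intracardiac samples and activated in IIA bone. Retnlg, highest in intracardiac mature and IIA bone activated cells, may therefore differ by name alone. Slfn1 went the other way, highest in intracardiac activated and IIA bone mature cells, and the reason was not tested. The members made up a median of 4.19% of all UMIs in early precursors, 12.5% in cycling precursors, 12.6% in immature and 6.97% in mature neutrophils of the intracardiac samples. In IIA bone these medians were 3.86%, 12.3%, 12.4% and 9.38%. The 7 primary and precursor members alone went from 2.85% to 0.00767% in the intracardiac samples, but from 2.51% to 0.195% in IIA bone. Elane had medians of 459.6 (range 351 to 557) CPM in immature and 676 (range 525 to 875) in mature cells of IIA bone, above every intracardiac sample of those stages. The same UMIs were found in IIA bone lymphocytes at a median of 631 CPM. The intracardiac libraries were 3′ and the IIA bone library 5′, so differences between the experiments cannot be told apart from library type.

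**Figure D1:**
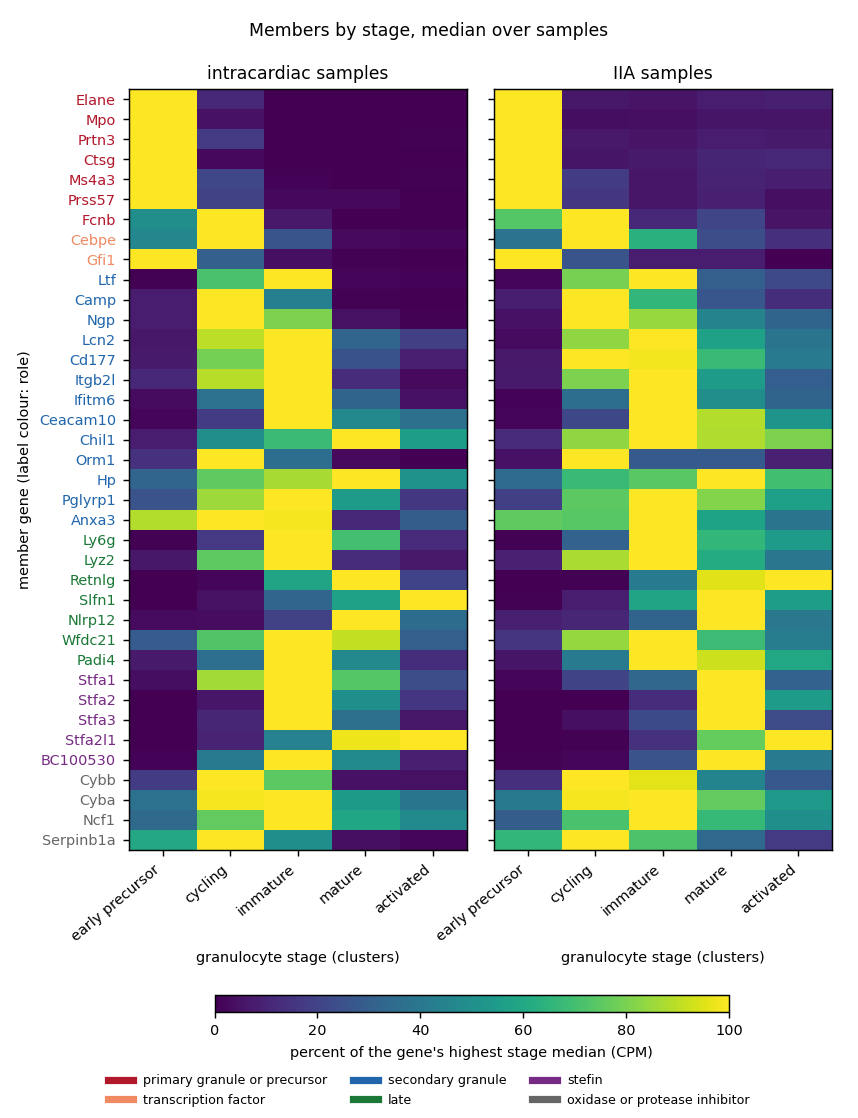
Median level of the 38 members (vertical axis, coloured by role) in each granulocyte stage (horizontal axis) of the intracardiac (left) and IIA bone (right) samples, as a percent of the gene's highest stage median in CPM. The bright cells move from early precursors for Elane (9140.2 CPM) through cycling precursors for Camp (40141 CPM) to mature neutrophils for Retnlg (39681 CPM).

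The next question was whether the biotin sorts differed in these genes. All granulocytes of a sample were summed, so that a change in the makeup of stages and a change of RNA within cells cannot be told apart in these values. In bone, most primary granule genes had higher and most secondary and late genes lower mean levels in positive than in negative samples, and the positive samples differed widely among themselves. Elane was at 1089, 1210.0, 1793 and 1569.8 CPM in negative samples 1 to 4 and at 1997, 2554, 8696 and 5123 in positive samples 1 to 4. Every positive sample was above every negative sample, and positive sample 3 was the highest. Mpo was at 497, 658, 817 and 638 CPM in negative and 1044, 1509.9, 3936 and 1976 in positive samples, also without overlap. Prtn3 was at 999, 1160.3, 1820.1 and 1729 CPM in negative and 2113, 2554, 8663 and 5309 in positive samples. Its groups did not overlap either, and sample 3 was again the highest positive one.

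Camp, of the secondary granules, was at 22235, 22368, 20267 and 23536 CPM in negative and 30112, 17307, 7889 and 17396 in positive samples of bone. Positive sample 1 lay above all negative samples and the other 3 positive samples below them, so the groups overlapped. Ltf was at 5518, 3435, 3516 and 3944 CPM in negative and 4996, 2558, 924 and 2298 in positive samples, lower in positive at each number but overlapping. Lcn2 was at 14046, 13586, 14284 and 15112 and 13010.0, 9659.6, 4247 and 9565 CPM, with every positive sample below every negative one. Of the late genes, Retnlg was at 14722, 17755, 15704 and 15108 CPM in negative and 5919, 11993, 2787 and 10354 in positive samples, and Ly6g at 541, 353, 368 and 448 and 297, 223, 68.3 and 290.4. Neither gene's groups overlapped, and positive sample 3 was the lowest for both.

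In the edgeR quasi-likelihood test with Benjamini-Hochberg adjustment over all genes, 0 of 38 members and 0 of 11005 genes passed in bone granulocytes (0.0%), although 3551 genes, 23 of them members, had an unadjusted p under 0.05. The log2 fold changes were 1.28 (SE 0.41, adjusted p = 0.105) for Elane, 1.27 (SE 0.35) for Mpo, -0.96 (SE 0.44) for Ltf and -1.37 (SE 0.43) for Retnlg. Samples with the same number deviated together, and with the number as a block edgeR called 34 of 38 members, 7 higher and 27 lower, beside 44.9% of all genes (23% higher and 21.9% lower); Cebpe, Fcnb, Orm1 and Serpinb1a were not called. With the block Elane had a log2 fold change of 1.10 (adjusted p = 0.00609) and Ltf of -1.19 (adjusted p = 0.0136). DESeq2 without the block called 20 members, 7 higher and 13 lower, beside 13.1% of all genes (7.21% higher and 5.93% lower). Scaling by total UMIs in place of TMM factors moved the median log2 fold change of all genes from 0.038 to 0.44 and called 9 members, 7 higher and 2 lower, beside 31.2% of all genes (30.6% higher and 0.609% lower). Of the other representatives, Fcnb had 0.085, Cebpe -0.033, Gfi1 1.22, Ngp -0.85, Lyz2 -0.99, Stfa2l1 -1.20, Cybb -0.56 and Ncf1 -0.66 in the fit with TMM factors. Under the scaling by total UMIs Cebpe, Anxa3 and Serpinb1a changed sign, so no direction is given for them in bone. Leaving out 1 sample at a time moved Cybb between -0.95 (without positive sample 1) and -0.31 (without positive sample 3), and Camp between -0.99 and -0.37 without the same samples.

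The same members were then read in the 6 injections of IIA bone. Elane had a lowest, median and highest value of 947, 1166 and 1374 CPM in negative and 4034, 7112 and 9173 in positive samples. Mpo had 599.7, 750.1 and 833 CPM in negative and 2925, 5503 and 7572 in positive samples, and Prtn3 783, 946 and 1094 and 3279.8, 6313 and 8106. The groups did not overlap for any of the 3, and Elane in lymphocytes of the same pool was at a median of 631 CPM. Camp had 27612, 35009.5 and 38577 CPM in negative and 4233, 12052 and 19105 in positive samples, Ltf 7037, 8391 and 9622 and 609.7, 1943 and 4493, and Ngp 15064, 17771 and 20531 and 1835, 5817 and 11186. Here too every positive sample lay outside the negative range, below it. Retnlg had 5482, 10658 and 16256 CPM in negative and 1235, 3864 and 11538 in positive samples, and these groups overlapped.

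In IIA bone granulocytes, edgeR with Benjamini-Hochberg adjustment called 34 of 38 members, 7 higher and 27 lower in positive samples, where 69.2% of 10424 genes were called, 35.5% higher and 33.7% lower. Most genes thus differed, and the members' share is to be read against that. The 7 members that rose were Mpo, log2 fold change 2.33 (SE 0.15, adjusted p = 4.7e-07), Prtn3 (2.09), Elane (2.01), Ctsg (1.95), Prss57 (1.93), Ms4a3 (1.76) and Gfi1 (1.69). All 13 secondary granule members fell, though Anxa3 had the opposite sign when scaled by total UMIs, from -2.42 for Ifitm6, -2.38 for Ltf and -2.25 for Lcn2 to -0.39 for Anxa3. All 7 late members fell, among them Ly6g (-2.38), Lyz2 (-2.26) and Retnlg, -1.54 (SE 0.53, adjusted p = 0.0222). Of the stefins, Stfa1 (-1.93) and Stfa3 (-3.08) fell, and all 4 members of the oxidase and inhibitor group fell, Cybb by 1.88 and Ncf1 by 1.49 on the log2 scale. Cebpe fell (-0.94), opposite to the other transcription factor.

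The members not called in IIA bone were Fcnb (0.031), Stfa2 (-1.53), Stfa2l1 (-1.43) and BC100530 (-1.36). Scaling by total UMIs moved the median of all genes from 0.023 to 0.59 and called 32 members, 8 higher and 24 lower, beside 73.8% of all genes (59.5% higher and 14.3% lower). Under it Fcnb was called higher, at 0.58, and Anxa3 had the opposite sign, at 0.15, and was not called. The median log2 fold change of the 38 members was -1.67 in IIA bone, against 0.023 over all genes tested, and -0.83 against 0.038 in bone.

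**Figure D2:**
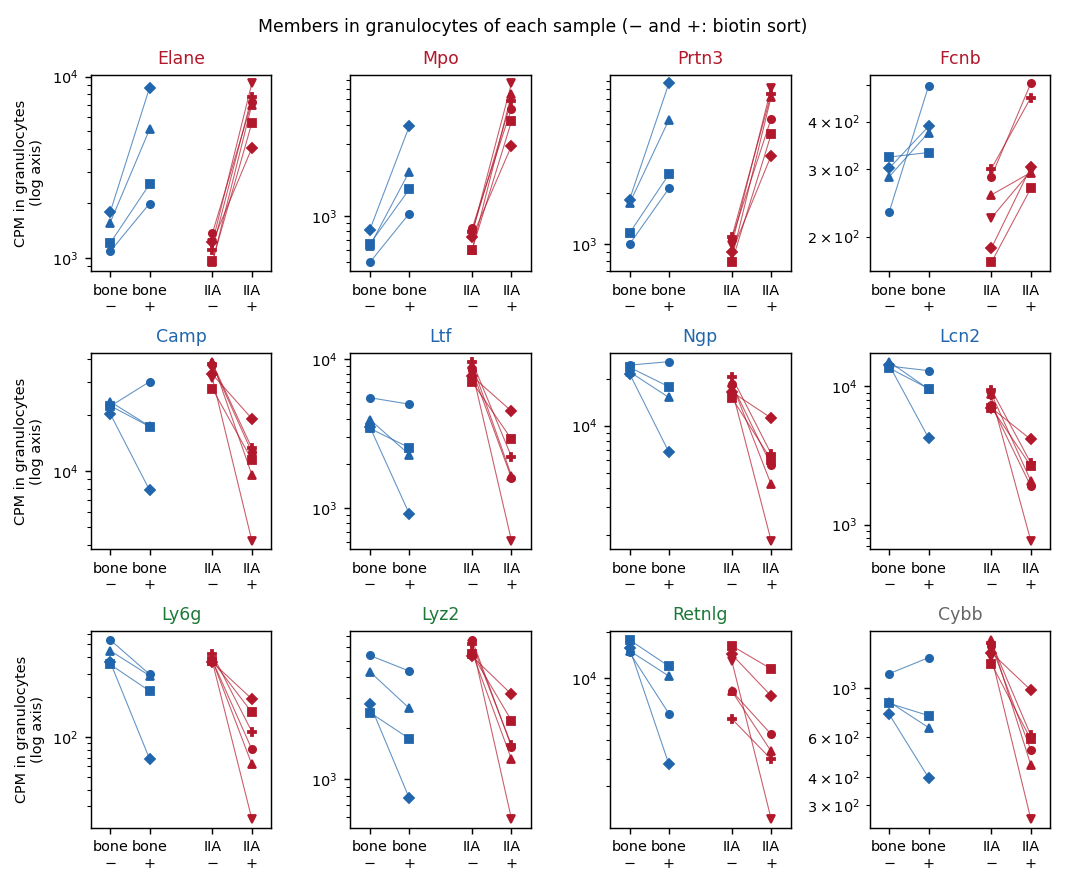
Level of 12 members (vertical axes, CPM in all granulocytes of a sample, log scale) in biotin negative and positive samples of bone (blue) and IIA bone (red), with lines joining samples of the same number. Every line slopes up for Elane, Mpo and Prtn3 and down for Ltf, Lcn2, Ly6g, Lyz2 and Retnlg, while those of Camp, Ngp and Cybb slope up in bone sample 1.

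In brain, liver and lung, 0 of 38, 37 and 37 members tested were called by edgeR (0.0% of all genes in each). DESeq2 also called 0 members and 0 genes in each. With the number as a block 0 members were called, beside 13 of 7410, 21 of 6649 and 68 of 6638 genes. The members with an unadjusted p under 0.05 numbered 0, 2 and 1, those of all genes 4, 510 and 75, and the medians of the members' log2 fold changes were -0.23, -0.29 and -0.0039. These medians moved with single libraries. That of brain went from -0.48 without positive sample 1 to -0.14 without negative sample 4, that of liver from -0.41 without positive sample 4 to 0.0068 without negative sample 1, and that of lung from -0.10 without negative sample 1 to 0.10 without positive sample 1. Elane had log2 fold changes of 0.17 (SE 1.52, adjusted p = 1) for brain, 2.2 (SE 1.42, adjusted p = 0.719) for liver and 2.25 (SE 1.29, adjusted p = 1) for lung. Its errors there were larger than in bone, and the estimates do not show that these tissues lacked a difference. A direct test of the biotin difference of bone against the mean of the other tissues called 0 of 38 members and 0 of 9816 genes with edgeR or DESeq2, with 178 genes and 2 members at an unadjusted p under 0.05. A difference between the tissues in these genes was not shown.

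**Figure D3:**
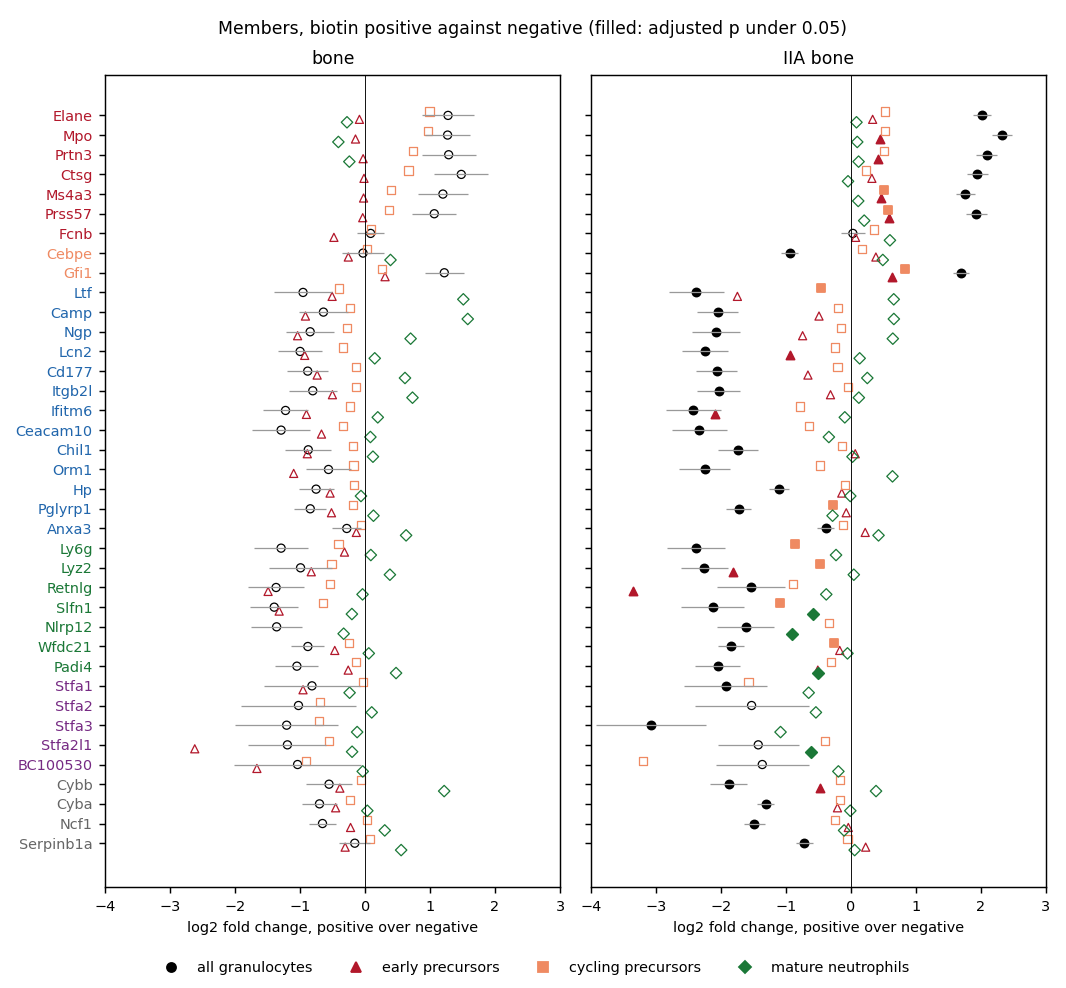
Log2 fold change of biotin positive over negative samples (horizontal axis) for the 38 members (vertical axis, coloured by role) in bone (left) and IIA bone (right), for all granulocytes (circles, bars show the SE) and within early precursors, cycling precursors and mature neutrophils; filled symbols have an edgeR adjusted p under 0.05. In IIA bone 34 circles are filled, against 10 triangles, 9 squares and 4 diamonds, and in bone none of the symbols is filled.

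The stage makeup of the sorts was measured directly. Early precursors made up 2.49, 4.02, 6.79 and 3.77% of the granulocytes of bone negative samples 1 to 4 and 9.93, 21.9, 46.1 and 15.9% of those of positive samples 1 to 4. Every positive sample was above every negative one, and the means were 4.27% and 23.5% (two-sided exact permutation test, n = 4 and 4, p = 0.029, the smallest this design allows; adjusted over 15 share tests, 0.107). In IIA bone the shares were 2.83, 1.46, 2.10, 2.09, 2.47 and 4.71% in negative samples 1 to 6 and 36.6, 9.39, 9.70, 32.9, 67.5 and 39.0% in positive samples 1 to 6. These groups did not overlap, with means of 2.61% and 32.5% (exact permutation p = 0.00216, the smallest possible, adjusted 0.0325). This share was added after the data had been seen.

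Early and cycling precursors together made up 6.97, 19.0, 23.5 and 18.6% of bone negative granulocytes and 36.8, 35.9, 62.9 and 28.7% of positive ones, again without overlap (means 17.0% and 41.1%, exact permutation p = 0.029, adjusted 0.107). This separation depended on a cycling cluster that carried no name and was in no stage, which held Elane at 1239 CPM and made up 9.86, 5.41, 9.24 and 6.22% of all cells of bone negative samples 1 to 4 and 3.04, 2.64, 6.13 and 3.70% of those of positive samples 1 to 4. This cluster also held Lyz2 at 6752 CPM, against a highest granulocyte stage median of 5144, and Camp at 828 CPM, against 40141 in cycling precursors. Whether its cells are neutrophil precursors was not tested. With it counted among the precursors, the joint share was 37.3, 25.9, 33.1 and 24.2% in negative and 40.1, 39.6, 65.6 and 31.6% in positive samples. The groups then overlapped (exact permutation p = 0.0857). The early share still separated the groups with these cells among the granulocytes (means 3.70% and 22.0%, exact permutation p = 0.029). In IIA bone this joint share overlapped between the sorts, with means of 25.6% and 45.8% (exact permutation p = 0.0519). The positive samples 2 and 3 had 15.5% and 23.8%, within or below the negative range of 16.6% to 37.2%. Compared within numbers by exact sign flips, the smallest p for 4 pairs is 0.125, which the early share reached in bone, liver and lung; for the 6 IIA pairs the early share gave p = 0.0312. In lung the early share had means of 0.155% and 1.04% (exact permutation p = 0.029, adjusted 0.107), from 2 or 3 early cells in each positive sample. The granulocyte share of all cells did not differ between the sorts in any tissue beyond the spread of the samples (exact permutation p from 0.257 to 0.943).

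**Figure D4:**
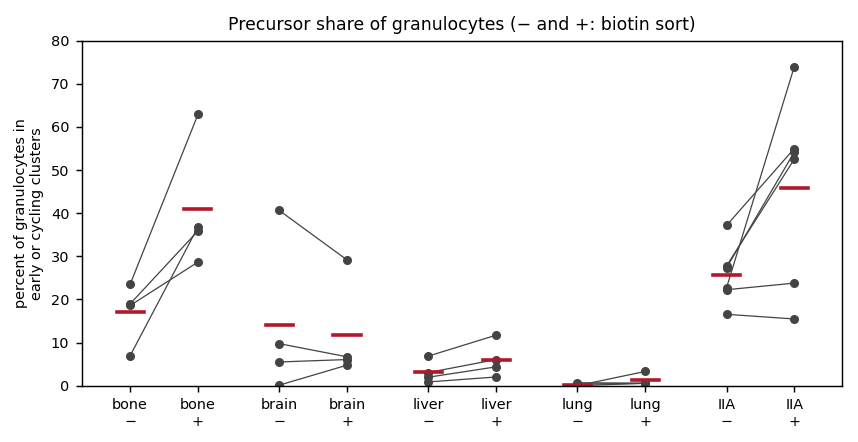
Share of granulocytes that were early or cycling precursors (vertical axis, percent) in each biotin negative and positive sample of the 4 intracardiac tissues and of IIA bone. In bone all 4 positive samples lie above the negative ones, and in brain the negative sample 1 stands at 40.6%; the unnamed cycling cluster is not counted.

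The sorts were also compared within single stages. These comparisons were added after the data had been seen. In early precursors of IIA bone (5 positive and 6 negative samples), edgeR called 10 of 28 members tested, 5 higher and 5 lower, beside 11.8% of all genes (4.88% higher and 6.88% lower), of 8039 tested. The members that rose were Gfi1 (0.64), Prss57 (0.59), Ms4a3 (0.47), Mpo (0.45, SE 0.08) and Prtn3 (0.41). Mpo had a log2 fold change of 2.33 in all granulocytes of the 6 positive and 6 negative samples. Retnlg (-3.36), Ifitm6 (-2.09), Lyz2 (-1.81), Lcn2 (-0.94) and Cybb (-0.48) fell. Elane was not called (0.34, adjusted p = 0.156); with the injection as a block it was, at 0.31. Leaving out 1 sample at a time, 8 to 13 members were called, with 2 of them lower without negative sample 5, 3 lower without negative sample 6 or positive sample 5 or 6, and 8 higher without negative sample 3.

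In cycling precursors of IIA bone, edgeR called 9 of 36 members, 3 higher and 6 lower, beside 5.32% of all genes (3.55% higher and 1.77% lower), of 7572 tested. Leaving out 1 sample at a time, 6 to 13 members were called. Without positive sample 5 there were 6 calls (1 higher and 5 lower), and without positive sample 1 there were 11 (2 higher and 9 lower). Gfi1 (0.83), Prss57 (0.57) and Ms4a3 (0.51) rose, and Slfn1 (-1.09), Ly6g (-0.86), Lyz2 (-0.47), Ltf (-0.46), Pglyrp1 (-0.27) and Wfdc21 (-0.26) fell. Camp had -0.19 (adjusted p = 0.0837). With the injection as a block 24 members were called, 5 higher and 19 lower, beside 6.83% of all genes (4.16% higher and 2.67% lower). DESeq2 called 15, 6 higher and 9 lower, beside 4.9% of all genes (3.5% higher and 1.4% lower), and edgeR without the filter on low counts 18, beside 2.72% of all genes (1.18% higher and 1.54% lower). In immature neutrophils of IIA bone, edgeR called 0 of 38 members and 0 of 6234 genes (298 genes and 4 members at an unadjusted p under 0.05; DESeq2 0 members; with the block 2 members, Camp and Stfa3, both lower, beside 0.0321% of all genes (0.0321% lower)). Without the filter on low counts 5 members were called, beside 0.0951% of all genes (0.0951% lower).

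In bone, edgeR called 0 members and 0 genes in early precursors (4 positive and 3 negative samples), cycling precursors and immature neutrophils, with 8, 1 and 2 members at an unadjusted p under 0.05, and DESeq2 called 0 members in each. Elane in early precursors had -0.088 (SE 0.25, adjusted p = 0.998) and in cycling precursors 0.99 (SE 0.72, adjusted p = 1). With the number as a block, edgeR called 14 of 37 members in cycling precursors of bone, beside 0.983% of all genes (0.347% higher and 0.636% lower), of 8649 tested. The 4 higher ones were Mpo (1.05), Ctsg (0.78), Ms4a3 (0.40) and Prss57 (0.41), and 10 were lower.

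Mature and activated neutrophils were summed together, called mature here, and compared between the sorts in each tissue. In bone, brain, liver and lung, edgeR and DESeq2 each called 0 members and 0 genes (3, 0, 3 and 1 members and 94, 84, 72 and 51 genes at an unadjusted p under 0.05); brain had 3 positive samples with at least 20 mature cells. Retnlg in mature cells of bone was at 22462, 57747, 54997 and 39516 CPM in negative and 29400.1, 46917, 52439 and 43036 in positive samples 1 to 4, and the groups overlapped. Its log2 fold change was -0.04 (SE 0.37, adjusted p = 0.999), against -1.37 in all granulocytes of bone. Ltf and Camp in mature cells of bone had 1.51 (SE 0.83) and 1.58 (SE 0.96), neither called. Camp was at 982, 272, 188 and 149.8 CPM in negative and 2823, 253, 221 and 972 in positive samples, with the number 1 sample the highest of each sort. Without the filter on low counts 1 member was called in bone, beside 0.0205% of all genes (0.0205% higher). With the number as a block, Cd177, Ifitm6, Ly6g, Lyz2 and Retnlg were called lower in brain, beside 1.01% of all genes (0.298% lower), and Lcn2, Cd177, Ceacam10, Pglyrp1 and Serpinb1a lower in liver, beside 0.423% of all genes (0.343% lower). In lung the block gave Camp lower and BC100530 and Cybb higher, beside 1.07% of all genes (0.978% higher and 0.0931% lower).

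In IIA bone mature neutrophils, edgeR called 4 of 37 members, all lower in positive samples, beside 11.9% of all genes (4.34% lower), of 5639 tested. The cells summed here are the mature and activated clusters together, and their mix differed between the sorts. Activated cells outnumbered mature ones in positive sample 2 (89 and 42) and positive sample 3 (169 and 105), and positive sample 5 had 137 and 201, whereas the negative samples had 2 to 80 activated and 331 to 776 mature cells. The part of this mix in the calls was not tested. These were Nlrp12, log2 fold change -0.90 (SE 0.20, adjusted p = 0.00713), Stfa2l1 (-0.62), Slfn1 (-0.58) and Padi4 (-0.51). Without mature cluster 5, which was led by Tnfaip6, G0s2 and Nr4a1, 0 members were called while 10.6% of 4525 genes still were, and Nlrp12 was at -0.48 (adjusted p = 0.132). With the injection as a block 12 members were called, 5 higher (Ltf, Camp, Ngp, Anxa3 and Cybb) and 7 lower, beside 17.4% of all genes (10.9% higher and 6.49% lower).

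Mature neutrophils of the negative sort were also compared between tissues. Against bone, edgeR called 0 of 36 members in brain, liver and lung, where 0.16%, 0.77% and 3.64% of 6887 genes were called; 5, 1 and 5 members had an unadjusted p under 0.05. Lcn2 was at 4512, 6945, 7688 and 5674 CPM in the bone samples 1 to 4, at 8117, 5820.5, 7931 and 7624 in those of brain, at 5939, 5179, 7088 and 5824 for liver and at 3664, 4691, 5716 and 4879 for lung, with overlapping ranges. Ly6g had a median and highest value of 518 and 812 CPM for bone, 687 and 787 for brain, 417 and 798 for liver and 341 and 719.6 for lung, with overlapping ranges. The sample numbered 3 was the highest for Ly6g in bone, liver and lung of the negative sort. With the number as a block, 1 member was called in liver (Orm1, higher), beside 3.89% of all genes (3.14% higher), and 2 in lung (Anxa3 and Padi4, lower), beside 11.3% of all genes (3.19% lower).

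The members were also counted in cells that should not transcribe granule genes. In B, T and NK cells, leaving out the 5% of cells with the highest doublet scores, Elane had a median over libraries of 12.02 CPM for replicate number 1, 8.59 for number 2, 84.6 for number 3 and 16.3 for number 4. It was at 631 CPM over the 9 IIA bone samples with enough lymphocytes. Mpo followed, at 11.3, 10.2, 110.1, 10.7 and 342 CPM. Libraries numbered 3 were thus high in every tissue and both sorts, and IIA bone was higher still. As a share of the level in all kept cells of the same number, lymphocyte Elane was 2.04%, 2.19%, 4.00% and 1.24% for numbers 1 to 4 and 20.2% in IIA bone. For Camp these shares were 7.44%, 2.32%, 2.28%, 0.846% and 3.09%. The Camp levels depended on the doublet scores. With all lymphocytes kept, as in the tests between sorts and the shares of cells, mean Camp was 3716 CPM in IIA bone negative and 1538 in bone negative samples, against 759.8 and 288 without the cells of highest score, while mean Elane in IIA bone negative samples was 703 against 634.

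The same genes were then read in mature neutrophils. Elane in mature neutrophils had medians of 12.8, 7.80, 69.3 and 17.7 CPM for numbers 1 to 4, and Mpo of 12.9, 12.7, 85.7 and 12.2. The number of Mpo UMIs for each Elane UMI was 1.06 in B cells, 1.11 in T cells, 1.07 in NK cells and 1.03 in mature neutrophils of the intracardiac samples, and 0.484 in early precursors. In IIA bone it was 0.563 in B cells, 0.583 in T cells, 0.533 in immature and 0.529 in mature neutrophils, and 0.808 in early precursors. The intracardiac ratios pool the UMIs of all libraries, although the levels of both genes differed by number. The source of the primary granule UMIs in mature cells was not tested.

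Per cell, after thinning each cell to 1000 UMIs, an Elane UMI was found in 71.8% (95% interval 68.9 to 74.5) of intracardiac early precursors, 2.02% (95% interval 1.77 to 2.28) of mature neutrophils, 3.42% (95% interval 2.95 to 3.93) of B cells and 3.08% (95% interval 2.59 to 3.64) of T cells. In IIA bone the shares were 97.9% (95% interval 97.2 to 98.5), 42.5% (95% interval 40.7 to 44.2), 43.9% (95% interval 41.3 to 46.4) and 38.8% (95% interval 35.7 to 42.1); the intervals are exact binomial and cover counting error only. Before thinning, the intracardiac shares were 74.7%, 7.21%, 8.33% and 8.39%, at median depths of 32086, 3536, 2244 and 3150.5 UMIs. These shares pool libraries whose Elane level differed by replicate number; by number, the mature median was above the lymphocyte median for numbers 1 and 4 and below it for numbers 2 and 3. Retnlg by contrast was found in 94.4% of thinned intracardiac mature neutrophils and 20.9% of B cells, and in 92.5% and 7.78% in IIA bone. Camp was found in 99.7% of intracardiac cycling precursors, 12.7% of mature neutrophils and 13.9% of B cells, pooled over libraries in the same way. The intracardiac B cells include 1 small cluster with Retnlg at 7669 and Camp at 4379 CPM, and without it Retnlg was found in 19.2%, Camp in 13.4% and Elane in 3.44% of B cells. In IIA bone Camp was found in 55.9% of mature neutrophils and 34.6% of B cells.

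Some libraries stood apart in their lymphocytes. Camp was at 6023 CPM in lymphocytes of brain positive sample 1 and 6919 in those of bone positive sample 2, against a median of 490.3 and 120.2 CPM for their numbers, and Retnlg was at 3032 CPM in lung positive sample 3. These values rested on the small B cell cluster rich in Retnlg and Camp: without that cluster, all other lymphocytes kept, they were 88.8, 242 and 288 CPM. Between the sorts, edgeR called 0 members in lymphocytes of bone, brain, liver, lung or IIA bone, with 1, 0, 1, 1 and 0 members and 180, 186, 427, 327 and 604 genes at an unadjusted p under 0.05, and DESeq2 called 1 member, in liver. Liver, lung and IIA bone each had 3 positive samples with enough lymphocytes. In liver 2 of 8041 genes were called (0.0249%), neither a member. With a block, Stfa2l1 was called lower in liver, beside 0.734% of all genes (0.46% lower). DESeq2 called its member there beside 0.336% of all genes (0.162% lower), and edgeR without the filter on low counts called 3, beside 0.689% of all genes (0.394% lower). In IIA bone the block gave Camp and Ngp higher, beside 0.101% of all genes (0.0672% higher), with log2 fold changes of 1.13 and 1.08. That direction turned without the 5% of cells with the highest doublet scores, where mean levels in lymphocytes were 287 CPM in 3 positive and 759.8 CPM in 6 negative samples for Camp and 145 and 326 CPM for Ngp. Both were then lower in the positive sample of 3 of 3 shared injection numbers. edgeR without the block called 0 of 25 members and 0 of 8359 genes on these cells (591 genes at an unadjusted p under 0.05), and the block was not run on them.

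**Figure D5:**
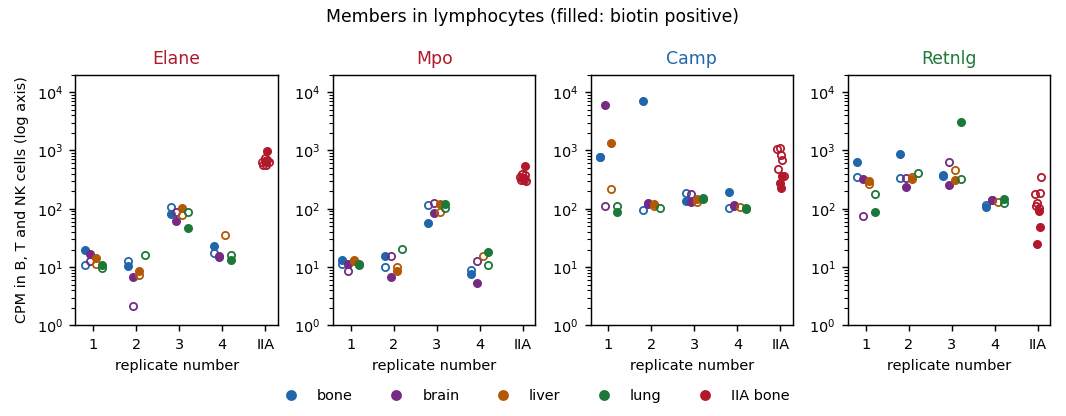
Level of Elane, Mpo, Camp and Retnlg (vertical axes, CPM, log scale) in B, T and NK cells of each library, without the 5% of cells with the highest doublet scores, against the replicate number or IIA bone (horizontal axis); filled points are biotin positive and colours are tissues. For Elane the points of number 3 lie together at a median of 84.6 CPM in all tissues and those of IIA bone at 631 CPM.

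A few members are not limited to granulocytes, and in these other cells they stood above the lymphocyte level. In thinned intracardiac cells, Lyz2 was found in 97.4% of monocyte-like cells and 94.7% of alveolar macrophage-like cells, against 36.7% of mature neutrophils and 12.9% of T cells. Cybb, which phagocytes share, was found in 66.8% of monocytes, 76.3% of alveolar macrophages and 64.4% of plasmacytoid dendritic cells, against 3.54% of T cells. It was also found in 22.9% of B cells, above the T and NK cells (2.02% of NK cells). Prtn3 was found in 17.2% (95% interval 16.4 to 18.1) of monocytes, while Elane was found in 2.78% of them. Intracardiac monocytes held 8.27 Prtn3 UMIs for each Elane UMI, against 0.801 to 3.89 in the other classes, with dendritic cells at the upper end and early precursors at 1.00. In IIA bone monocytes held 1.41, against 0.723 to 1.004 in the other classes. Basophil- or mast cell-like cells, 128 in the intracardiac samples, held 7.77 Mpo UMIs for each Elane UMI.

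Of a list of 38 other genes of the pathway, covering granule sorting and release, other oxidase subunits, transcription factors, gelatinase granules and chemotactic receptors, edgeR called 3 higher and 29 lower in IIA bone granulocytes, beside 69.2% of all genes (35.5% higher and 33.7% lower), and 0 in bone. In mature neutrophils of the negative sort it called Cebpb higher in liver than in bone (0.97, beside 0.77% of all genes) and Cebpb (1.20) and Srgn (0.93) higher in lung than in bone (beside 3.64%); these genes are named because they passed. In IIA bone granulocytes the 4 with the smallest adjusted p were Cst7, a cystatin (2.0), Stxbp2, which acts in granule release (-1.05), Cebpa, the factor that starts granulocyte commitment (1.42), and Ceacam1, a surface adhesion molecule (-1.61). Within stages of IIA bone the list gave 2 higher and 5 lower of 31 tested in early precursors, 0 higher and 6 lower of 36 in cycling precursors, 0 of 38 in immature neutrophils and 4 higher and 1 lower of 38 in mature neutrophils, beside 11.8%, 5.32%, 0.0% and 11.9% of all genes called in the same fits.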

How the data were processed

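Single-cell RNA counts were taken as deposited. Per the file headers, the authors made whole-number UMI counts per gene with Cell Ranger 6.1.2 for the intracardiac samples (3′ libraries, CellPlex) and 7.1.0 for IIA bone (5′ libraries, TotalSeqC); the submitters' processing notes name mm10 and Seurat. Cells with at least 500 UMIs, 200 genes and at most 15% mitochondrial UMIs were kept, and IIA bone cells were assigned to a sample by a hashtag with at least 10 counts and 3 times the next. Cells were clustered with scanpy 1.11.5 (2000 variable genes without the members, 30 components, 15 neighbours, Leiden resolution 1.0) and clusters were named from 24 marker lists; a granulocyte cluster was called cycling by the summed level of cell cycle markers, with a threshold set after seeing the data. Counts were summed per sample with at least 20 cells and tested with edgeR 4.0.16 (R 4.3.3, TMM, quasi-likelihood, Benjamini-Hochberg over all genes, 0.05), with DESeq2 1.42.0 as an alternative. The scrublet caller marked 654 intracardiac cells (1.18%) and 0 IIA bone cells, for a reason that was not tested. The 5% of cells with the highest scores were therefore left out as an alternative.

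The members, roles and pathway list were chosen with earlier results of these data known. The text gives 16 representatives by rule (Elane, Mpo, Prtn3, Fcnb, Cebpe, Gfi1, Ltf, Camp, Ngp, Lcn2, Ly6g, Lyz2, Retnlg, Stfa2l1, Cybb and Ncf1), further members where they passed the test, and at most 4 other pathway genes, with Cebpb and Srgn named after their values were seen. Same-numbered intracardiac sorts deviated together from their group means (correlations 0.36 to 0.96 over genes), which was taken as pairing, although brain 3 correlated better with another number (0.80) than with its own (0.69). The IIA bone sorts share an injection number in the hashtag notes; their correlations ran from -0.079 (number 5) to 0.76, and 3 of 6 were best with their own number. The labels do not say whether samples are separate mice, so p-values measure the spread between samples. Other alternatives left out the low-count filter, or each replicate in turn (intracardiac comparisons except bone against the other tissues, and early and cycling precursors of IIA bone). The edgeR test without a block was also run on simulated data in which few genes changed, as many up as down. That setting does not cover fits in which most genes differed.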

Additional observations from a re-analysis of the deposited data

Results flagged for a closer look

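Of 84 groups examined for a sample far from the others, 3 held one, and chance alone gives about 1 in 20. The precursor share of granulocytes reached 29.2% in brain positive sample 1, far from the other 3 positive samples. In lung positive samples the highest precursor share was 3.31%, in sample 2. Ly6g in granulocytes of IIA bone negative samples reached 419.5 CPM, apart from the other 5.

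Primary granule UMIs also appeared in clusters that carried no name and were in no stage. The intracardiac cluster of 1578 cells led by cell cycle genes such as Pclaf and Top2a held Elane at 1239 CPM, Prtn3 at 2715 CPM and Mpo at 811 CPM. It also held Lyz2 at 6752 CPM and Camp at 828 CPM, and was counted with the precursors only in the alternative shares. An IIA bone cluster of 325 cells led by Cacnb2 and St7 held Elane at 4635 CPM, Prtn3 at 4248 CPM and Mpo at 14390 CPM.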

How the results depend on the processing

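All counts are of members called. With the replicate number as a replicate block, the counts in all granulocytes of bone went from 0 to 34, and DESeq2 called 20 and scaling by total UMIs 9. The block called 5 members in mature neutrophils of brain, 5 of liver, 3 of lung and 12 of IIA bone, 1 in lymphocytes of liver, 2 in those of IIA bone, 14 in cycling precursors of bone, 24 in those of IIA bone, 2 in immature neutrophils of IIA bone, and 1 and 2 for liver and lung against bone. DESeq2 called 1 in lymphocytes of liver and 15 in cycling precursors of IIA bone. Without the filter on low counts the counts were 1 in mature neutrophils of bone, 3 in lymphocytes of liver, 18 in cycling and 5 in immature cells of IIA bone. Without cluster 5 the mature count of IIA bone was 0. Paired by number, the differences of 24.0 (precursor share, bone), 19.2 (early share, bone) and 0.886 percentage points (early share, lung) no longer passed 0.05 before adjustment, since 4 pairs cannot. With the unnamed cycling cluster counted as precursors (chosen after seeing the data), the precursor share differed by 14.1 points in bone and no longer passed, and the early share in brain by 0.775, against -0.212. The cause of the other changes was not tested.

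Leaving out 1 replicate at a time, the difference in precursor share ranged from 16.8 to 28.2 points in bone and from -8.16 to 6.55 in brain, and that in early share from 11.6 to 23.7 in bone, -2.57 to 2.86 in brain and 0.407 to 1.05 in lung. The lowest values in bone came without positive sample 3, the lowest in lung without positive sample 2, and the reversals in brain without negative sample 1 (both shares) and without positive sample 2 or 4 (early share). The difference in granulocyte share ranged from -3.37 to 17.8 in bone, -9.31 to 10.9 in liver and -19.3 to 0.695 in lung, and lymphocyte calls in liver from 0 to 1. Cebpe in bone ranged from -0.24 to 0.23 and was 0.35 with total UMIs and 0.053 in clusters made with the members. Fcnb in bone ranged from -0.044 to 0.16, and in IIA bone it was -0.0013 without the filter. Anxa3 in IIA bone was 0.15 with total UMIs. Samples with fewer than 20 cells of a class entered no fit.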
